A study of Mus musculus with 32 samples.

Results

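The 10 genes described here are the ligands Dll1, Dll4, Jag1 and Jag2, the receptors Notch1, Notch2, Notch3 and Notch4, and the transcriptional targets Hey1 and Hes1 of the Notch pathway, taken by gene symbol from a table of 22850 genes. All 10 were found, each as a single row. They were measured by RNA-seq in 3 cell types sorted by flow cytometry from mouse islets: β cells, endothelial cells (ECs), and islet macrophages (MΦs). The mice carried MIP-GFP together with RIP-rtTA and TetO-VEGF-A. The rat insulin promoter drives rtTA, so that doxycycline (Dox) in the drinking water switches on VEGF-A in β cells, and the mouse insulin promoter marks β cells with GFP. Every group carried all of these transgenes, including the No Dox controls. Mice received no Dox (No Dox), 1 week of Dox (1wk Dox), or 1 week of Dox followed by 1 week of withdrawal (1wk WD). β cells were sorted by GFP in the absence of CD31 and CD11b, the surface proteins by which ECs and MΦs, respectively, were sorted. The labels give no age and the study's methods give 1 adult age range for all mice, not an age per group. Islets of several mice were pooled for a sample, so a sample is a sorted pool and not a single animal. There were 4 No Dox, 5 1wk Dox and 3 1wk WD samples of β cells, 4, 1 and 5 of ECs, and 4, 2 and 4 of MΦs.

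Notch signaling passes between cells in contact. A ligand of the Delta-like or Jagged family on one cell binds a Notch receptor on its neighbor, the receptor is cut by an ADAM protease and then by γ-secretase, and the freed intracellular domain joins the DNA-binding protein RBPJ and Mastermind-like coactivators to switch on genes such as Hes1 and Hey1. In blood vessels, VEGF-A is known to induce Dll4 in sprouting ECs, Dll4 and Jag1 act on EC Notch receptors with opposing effects on sprouting, and Notch activity favors arterial identity. Notch3 is best known from pericytes and vascular smooth muscle, Notch4 from endothelium, and Notch2 from myeloid and B-lymphoid cells.

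Values are normalized expression scores as deposited, which have no stated unit, are whole numbers and have a lowest value of 1. The read depth behind them is not known, and score sums ran from 23465985 to 53441769 per sample (median 32988124). Summed scores of marker genes followed the sorts. The 10 β cell markers summed to between 513966 and 10941261 in β cell samples, against 371 to 3339 in ECs and 1975 to 47759 in MΦs. The endothelial sum was 384521 to 599045 in ECs and 1265 to 52416 elsewhere, and the macrophage sum was 248677 to 536759 in MΦs and 478 to 7281 elsewhere. In bulk samples, fewer cells of a type and less RNA per cell cannot be told apart.

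Several libraries stood apart from their group. Among the No Dox β cell samples, the 11 pericyte and stromal markers summed to 1036 and 1126 in replicates 1 and 2, and to 155303 and 544937 in replicates 3 and 4. The 5 1wk Dox β cell samples had stromal sums of 508536, 164088, 287248, 448990 and 108281, and the 1wk WD samples had 372584, 338098 and 26130. Acinar transcripts were also uneven, with sums from 33718 to 13324714 in No Dox β cells, 211 to 21998 in 1wk Dox β cells and 26391 to 12136507 in No Dox MΦs. In ECs the acinar sum was 106491, 1833084, 91475 and 66736 at No Dox, 205 in the 1wk Dox sample and 66453, 711, 1115, 1092 and 1116 in the 1wk WD samples. In ECs at 1wk WD, replicates 3 and 4 had more genes at the lowest score, 7336 and 7055 of 22850, than the other 3 samples, which had 6349 to 6665. The library numbers in the table header form 2 runs, and the run of 4 libraries held the only 1wk Dox EC sample, both 1wk Dox MΦ samples and replicate 3 of the 1wk WD β cells. For 1wk Dox in ECs and MΦs, the run and the Dox treatment therefore cannot be told apart.

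In the coordinates of the deposited table (mm9), Dll1 (ENSMUSG00000014773) is on chromosome 17 at 15504318-15513836 on the minus strand. Dll4 (ENSMUSG00000027314), Jag1 (ENSMUSG00000027276) and Notch1 (ENSMUSG00000026923) share chromosome 2, at 119151520-119161698 (plus), 136907192-136942380 (minus) and 26313423-26372183 (minus). Jag2 (ENSMUSG00000002799) is on chromosome 12 at 114146801-114167706 (minus). Chromosome 3 holds Notch2 (ENSMUSG00000027878) at 97817461-97954290 (plus) and Hey1 (ENSMUSG00000040289) at 8663362-8667039 (minus). Notch3 (ENSMUSG00000038146) and Notch4 (ENSMUSG00000015468) are on chromosome 17, at 32257765-32303825 (minus) and 34701213-34725448 (plus), and Hes1 (ENSMUSG00000022528) is on chromosome 16 at 30064470-30067882 (plus). These are whole-gene spans from first to last exon, and each score is a single value for the gene and does not separate transcripts.

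The ECs of No Dox islets held the highest scores of most of the Delta-like and Jagged ligands. Dll4, the ligand of sprouting and arterial ECs, scored 5054, 5636, 6110 and 5159 in the 4 No Dox EC samples (5490 ± 485, SD, n = 4), 18, 97, 53 and 46 in β cells and 17, 7, 22 and 15 in MΦs. The lowest EC sample was far above the highest sample of either other cell type. Dll4 was 6.88 ± 0.49 (SE) higher in ECs than in β cells on the log2(score + 1) scale, with an adjusted p of 8.13e-07, and 8.50 ± 0.49 higher than in MΦs. Jag2 scored 4491, 4179, 5464 and 4112 in ECs, 708, 237, 199 and 207 in β cells and 82, 197, 131 and 242 in MΦs. It was 3.97 ± 0.42 higher in ECs than in β cells and 4.90 ± 0.42 higher than in MΦs. Dll1 scored 622 to 975 in ECs and stood 4.79 ± 0.77 above β cells, where it scored 3 to 77. In MΦs Dll1 scored 1, 1, 1 and 2, at the floor of the table, so its fitted difference of 8.39 from ECs depends on the pseudocount.

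Jag1 did not follow the other ligands. It scored 2239, 2868, 2586 and 2650 in No Dox ECs (2586 ± 261, n = 4) and 2654, 2083, 2602 and 3129 in No Dox MΦs (2617 ± 428, n = 4), and the ranges overlapped. The difference was -0.01 ± 0.86 on the log2 scale. In β cells Jag1 ran from 88 to 3575, and the difference of 2.06 ± 0.86 between ECs and β cells missed the threshold (adjusted p = 0.0659). The SE here is pooled over the 3 cell types and is wide for that reason, since the β cell samples differed among themselves.

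The receptors were split among the cell types. Notch1 scored 16495, 15933, 17677 and 16771 in No Dox ECs (16719 ± 728, n = 4), against 985 to 4931 in β cells and 1595 to 3701 in MΦs, which was 2.96 ± 0.44 and 2.53 ± 0.44 higher in ECs. Notch4 scored 12544 to 13878 in ECs, 39 to 2262 in β cells and 179 to 382 in MΦs, and was 5.42 ± 1.04 and 5.57 ± 1.04 higher in ECs. Notch2 had the opposite profile. It scored 35538, 25806, 26846 and 26956 in No Dox MΦs (28786 ± 4531, n = 4), 641 to 993 in ECs and 272 to 3905 in β cells. The log2 difference of ECs from MΦs was -5.15 ± 0.68, that is 35.5-fold lower in ECs, and β cells were 27.2-fold below MΦs. Notch3, the pericyte receptor, scored 212 to 723 in ECs and 62 to 309 in MΦs, and in β cells 111 and 82 in replicates 1 and 2 but 8108 and 28465 in replicates 3 and 4, the replicates with high stromal sums. None of its differences between cell types at No Dox passed the test.

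Both target genes were highest in ECs. Hey1, a bHLH repressor of arterial and endocardial cells, scored 2413, 2518, 3322 and 2828 in No Dox ECs and 26, 3, 1 and 1 in MΦs, with β cells at 8, 3, 213 and 390. It was 6.04 ± 1.37 higher in ECs than in β cells. Hes1, a repressor that Notch induces in many tissues, scored 825, 1193, 1475 and 1249 in ECs, 150 to 275 in MΦs and 140 to 971 in β cells. Its EC level was 2.01 ± 0.52 above β cells and 2.48 ± 0.52 above MΦs. The highest β cell sample, replicate 4, overlapped the EC range.

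In all, 7 of the 10 genes were higher in ECs than in β cells and none lower at No Dox, where a call is a difference of at least 2-fold with a limma adjusted p below 0.05. Over all genes tested 37.7% were called in either direction and 16.5% as higher in ECs. The same 7 genes were higher in ECs than in MΦs and 1, Notch2, was lower, against 33.5% of all genes called and 15.9% higher in ECs. Between β cells and MΦs, Dll1 and Dll4 were higher in β cells, by 3.60 ± 0.77 and 1.62 ± 0.49, and Notch2 was lower, with 43.2% of all genes called. Dll1, Dll4 and Hey1 were below the minimum mean score of 20 in MΦs at No Dox and after withdrawal, so they entered the comparisons with MΦs only through the group where they were higher, and their calls there are a description. The Dll1 and Dll4 differences of β cells from MΦs were 1.32 to 4.64 and 0.73 to 2.05 over 24 alternatives, and that of Dll4 had an adjusted p below 0.05 in 20 of them (up to 0.421). 

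The β cell side of these comparisons rested on which No Dox β cell replicates were used. With replicates 1 and 2 alone, ECs were higher than β cells in all 10 genes (45.4% of all genes called, 22.6% higher in ECs), including Notch2 (1.19 ± 0.23) and Notch3 (2.04 ± 0.71). With replicates 3 and 4 alone 8 were called (37.8% of all genes), with Notch2 (-1.96 ± 0.23) and Notch3 (-5.26 ± 0.75) lower in ECs, and Hes1 lost its call (adjusted p = 0.067). Dll1, Dll4, Jag2, Notch1, Notch4 and Hey1 were higher in ECs under both, but by unequal amounts. Notch4 was 7.83 ± 0.33 higher with replicates 1 and 2 and 3.01 ± 0.30 with replicates 3 and 4. Hey1 was 8.84 ± 0.94 and 3.25 ± 0.90 higher, Notch1 3.84 and 2.09, and Dll1 3.75 and 5.82. Against MΦs, the pairs gave 6 and 7 calls in place of 3, with 49.3% and 43.0% of all genes called, and Notch4 changed its direction, at -2.26 ± 0.33 in β cells with replicates 1 and 2 and 2.56 ± 0.30 with replicates 3 and 4. The Dll4 difference between β cells and MΦs was not called with replicates 1 and 2 alone (adjusted p = 0.0527), nor with MΦ replicates 1 and 3 alone (adjusted p = 0.0931). Both settings were chosen after the data were seen.

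**Figure D1:**
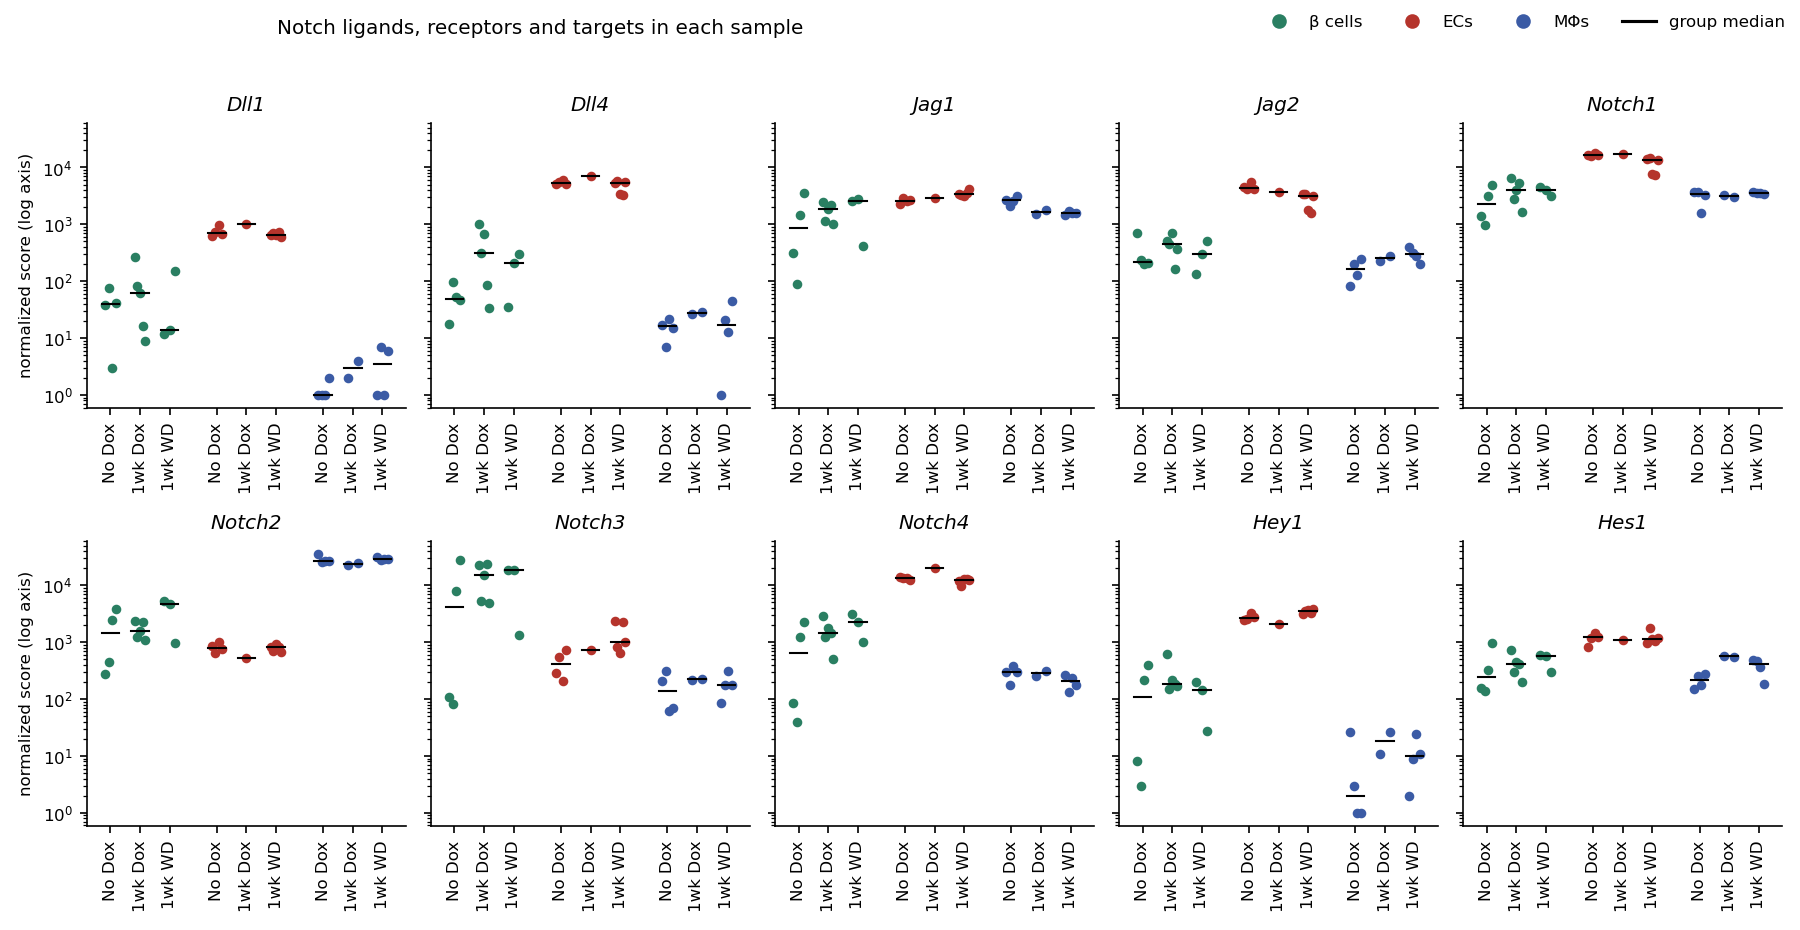
Normalized expression score of each of the 10 genes (log axis) in every β cell, EC and MΦ sample, by condition. Each point is a sample. Dll4, Hey1 and Notch4 are highest in ECs under all 3 conditions, Notch2 is highest in MΦs, and Notch3 in β cells spans from 82 to 28465 at No Dox.

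**Figure D2:**
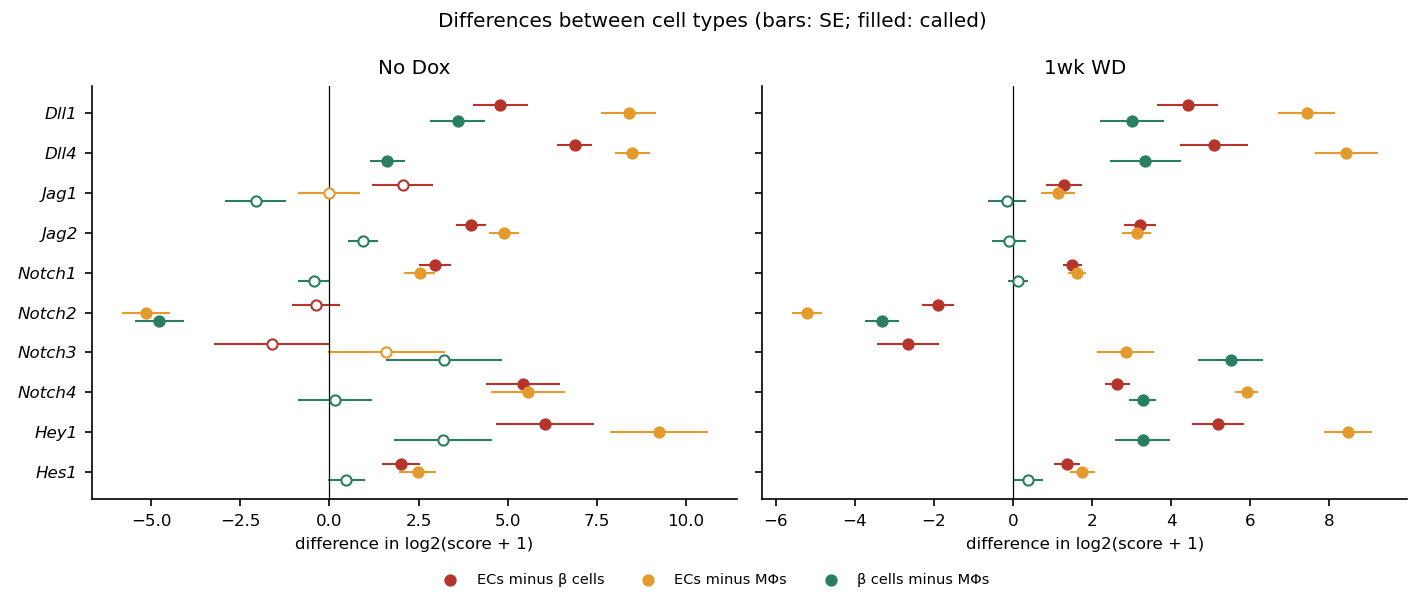
Fitted difference between cell types in log2(score + 1) for each gene at No Dox (left) and 1wk WD (right), with the SE as bars and filled points where a difference was called. Dll4 lies at 6.88 for ECs minus β cells at No Dox, and Notch2 at -5.15 for ECs minus MΦs.

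Divided by exonic length, the order of the genes within a cell type can be compared, with the limit that the sources do not state whether the scores were already scaled for length. The median score per exonic kb in No Dox ECs was 1683 for Notch4, 1401 for Dll4, 1213 for Hey1, 1169 for Notch1 and 1069 for Jag2. Hes1 followed at 599, Jag1 at 449, Dll1 at 167, Notch2 at 76.9 and Notch3 at 52.1. In No Dox MΦs the median per kb was 2561 for Notch2, followed by 451 for Jag1, 244 for Notch1 and 106 for Hes1, with each of the remaining 6 genes at 40.5 or less. The order of the EC receptors turned on this division, since the undivided median score was 16633 for Notch1 and 13570 for Notch4.

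At 1wk WD, Dll4, Hey1 and Notch4 again were higher in ECs than in either other cell type, and Notch2 was higher in MΦs. ECs were higher than β cells in 8 of the 10 genes (39.9% of all genes called, 14.8% higher in ECs), among them Dll4 by 5.10 ± 0.86, Hey1 by 5.19 ± 0.66 and Notch4 by 2.64 ± 0.32, while Notch2 (-1.90 ± 0.41) and Notch3 (-2.65 ± 0.78) were lower. ECs were higher than MΦs in 9 of the 10 genes (40.3% of all genes called, 19.6% higher in ECs), and Notch2 was again lower (-5.22 ± 0.38). Jag1 was among the 9, at 1.14 ± 0.42 with an adjusted p of 0.0349. Leaving out any 1 of the EC or MΦ samples took its adjusted p above 0.05, to at most 0.0746, and leaving out β cell replicate 3 took it to 9.52e-07, because the SE is shared with the β cells. β cells were higher than MΦs in Dll1, Dll4, Notch3, Notch4 and Hey1 and lower in Notch2, with 46.2% of all genes called. Under quantile normalization the Dll1 and Dll4 calls were lost (adjusted p = 0.225 and 0.121), and over 21 alternatives their differences were 1.28 to 3.63 and 2.03 to 4.28. The β cell samples at 1wk WD also differed in stromal sum, as given above. Without replicate 3, the one with the low sum, 9 genes were called between ECs and β cells (40.1% of all genes) and the same 6 between β cells and MΦs (47.1%). Jag1 was the gene lost from the former, at 0.40 ± 0.14 in place of 1.29 ± 0.46, and its adjusted p was 0.0511 and 0.0601 without EC replicate 4 or 5. Notch3 was -3.92 ± 0.54 without β cell replicate 3 and lost its call without β cell replicate 1 or 2 (-2.02 each, adjusted p = 0.0643 and 0.07). Notch2 was -2.69 ± 0.14 without β cell replicate 3.

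The other genes of the pathway were followed as lists of 13 further ligands and modulators, 10 genes of receptor cleavage, 14 of the nuclear complex, 10 negative regulators, 8 other HES and HEY genes and 8 arterial endothelial genes. Between ECs and β cells at No Dox, 16.5% of all genes were higher in ECs and 21.2% lower, against which the counts of each list are read. Of the arterial genes, 7 of 8 were higher in ECs, including the transcription factor Sox17 (7.48 ± 0.70), the VEGF-A coreceptor Nrp1 (6.60 ± 1.12), the ephrin ligand Efnb2 (6.17 ± 0.71) and the connexin Gja5 (3.67 ± 0.86). Hey2, which is on the arterial list and the HES and HEY list, was higher (6.10 ± 1.74), and Hes6 was lower (-2.63 ± 0.34). Among the modulators, 4 were higher in ECs, including the Fringe glycosyltransferases Mfng (6.39 ± 0.90) and Lfng (4.25 ± 1.40), which tune how Notch responds to each ligand family, and Dner was lower (-6.04 ± 0.90). Nrarp, a Notch target that limits Notch signaling, was 4.21 ± 1.26 higher in ECs, whereas Dtx4 was lower (-5.54 ± 0.86), the negative regulators having 3 called higher and 2 lower. In the cleavage list, the sheddases Adam10 (2.10 ± 0.15) and Adam17 (1.49 ± 0.22) were higher in ECs and the γ-secretase genes Psen2 and Aph1b lower. Of 14 nuclear complex genes, Maml1 and Maml2 were higher, a share close to that of all genes. The split of the No Dox β cell samples reached these genes too. Nrarp scored 3, 13, 149 and 305 in β cells and 645 to 838 in ECs, and its difference was 6.63 ± 0.96 with β cell replicates 1 and 2 and 1.79 ± 0.89 with replicates 3 and 4 (adjusted p = 0.123). Lfng was 7.36 and 1.15 higher, and Hey2 9.66 and 2.55. Aph1b, Bmx and Maml1 also lost their calls with replicates 3 and 4 alone, and Dtx1 with either pair. Gja4, the arterial gene not called, scored 5, 21, 1789 and 5556 in β cells against 1064 to 1383 in ECs. Gja5 and the modulator Dlk2 were under the minimum mean score of 20 in β cells, as were Dner, Dtx1 and Dtx4 in ECs. They entered this comparison only through the group where they were higher, and their calls are a description.

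Against MΦs at No Dox, 15.9% of all genes were higher in ECs and 17.6% lower. Rbpj, the DNA-binding partner of every Notch receptor, was lower than in MΦs in both ECs (-2.95 ± 0.22) and β cells (-3.06 ± 0.22). The other nuclear complex gene called was Rbpjl, an acinar paralog of Rbpj, lower in ECs (-5.11), and none of the 14 was higher. In the cleavage list, Aph1b (-2.10 ± 0.26), Psen2 (-2.73 ± 0.25) and Aph1c (-5.10 ± 0.42) were lower in ECs than in MΦs, and Aph1a (1.11 ± 0.22) was higher. Dtx4 was lower in ECs (-9.14 ± 0.86). The arterial list had 5 genes higher in ECs, led by Sox17 (10.40 ± 0.70), and 1 lower, the chemokine receptor Cxcr4 (-2.34 ± 0.76). Of the other ligands and modulators, 2 of the 12 that passed the minimum, Dlk1 and Dlk2, were higher in ECs, and of the negative regulators Nrarp, Numb and Numbl were higher. Some of these genes, among them Sox17, Gja5, Nrarp and Dlk1, were under the minimum mean score of 20 in MΦs, and Dtx4 was in ECs. They entered only through the group where they were higher, so their calls are a description and their differences depend on the pseudocount.

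None of the 10 genes was called in ECs at 1wk WD against No Dox, where 1.76% of all genes were called, and the groups did not overlap for 3 of them, Jag1, Jag2 and Notch1 (10.7% of all genes). Jag1 scored 2239, 2868, 2586 and 2650 at No Dox and 3483, 3245, 3111, 3550 and 4216 at 1wk WD (3521 ± 427, n = 5), with every 1wk WD sample above every No Dox sample. The difference was 0.44 ± 0.11 on the log2 scale, 1.36-fold (adjusted p = 0.0508). Jag2 scored 4491, 4179, 5464 and 4112 at No Dox and 3376, 3449, 1818, 1606 and 3132 at 1wk WD, with every 1wk WD sample below. The difference was -0.83 ± 0.22 (adjusted p = 0.0599).

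Acinar transcripts moved with the condition in ECs, with 8 of 8 acinar markers called as lower at 1wk WD (median -6.73). All 1wk WD samples were below the No Dox range of the acinar sum, replicate 1 by little. The part of these transcripts in the EC differences of Jag1, Jag2, Notch1, Notch3 and Heyl was not tested.

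Notch1 in ECs was 15933 to 17677 at No Dox and 13871, 14839, 7554, 7283 and 13766 at 1wk WD, also without overlap (-0.61 ± 0.21, adjusted p = 0.126). Replicates 3 and 4 of 1wk WD, the samples with more genes at the lowest score, held the lowest Notch1, Jag2 and Dll4 scores, the last at 3386 and 3264 against 5323 to 5695 in the other 3. With replicates 1, 2 and 5 alone, Jag1 differed by 0.49 ± 0.12 (adjusted p = 0.0487), Jag2 by -0.45 ± 0.11 (adjusted p = 0.053) and Notch1 by -0.24 ± 0.08 (adjusted p = 0.145). The part of those 2 libraries in the differences was not otherwise tested. The endothelial marker sum was also lower, at 384521 to 436689 at 1wk WD against 468016 to 510691 at No Dox. Of the 10 endothelial markers, 3 were above 0 (median -0.21), 0 were called, and Kdr was lowest at -0.98 ± 0.13. The part of this shift in the Jag2 and Notch1 differences was not tested.

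Notch3 showed the largest fitted difference of the 10 genes in ECs. It scored 286, 552, 212 and 723 at No Dox and 2384, 817, 639, 2306 and 1025 at 1wk WD, and the groups overlapped at replicate 4 of No Dox. The difference was 1.65 ± 0.44 (adjusted p = 0.0565), and it was called in 3 of the 9 fits that left out 1 sample. These were the fits without No Dox replicate 4 (adjusted p = 0.0475), 1wk WD replicate 2 (0.0472) or 1wk WD replicate 3 (0.0484), and the adjusted p of the other 6 reached 0.175, without No Dox replicate 3. Heyl, a HEY-family target that smooth muscle and pericytes express, was the only gene of the pathway lists called in ECs at 1wk WD. It scored 57, 173, 55 and 227 at No Dox and 925, 345, 322, 1653 and 612 at 1wk WD, and rose by 2.58 ± 0.53 (adjusted p = 0.0215).

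Pericyte and stromal transcripts moved with both genes in the EC samples. The stromal sum was 5879, 10582, 5686 and 12723 at No Dox and 49356, 20637, 17034, 71053 and 22523 at 1wk WD, and 5 of the 10 stromal markers tested were called as higher, including Rgs5 (2.01 ± 0.41, adjusted p = 0.0206) and Des (1.47 ± 0.35). Pdgfrb differed by 1.76 ± 0.49 (adjusted p = 0.0645). The samples with the highest Notch3 and Heyl, replicates 1 and 4, had the highest stromal sums. Jag1 in ECs was also higher in every 1wk WD sample than at No Dox. In No Dox β cells Jag1 scored 313, 88, 1440 and 3575, with stromal sums of 1036, 1126, 155303 and 544937. Within the 1wk WD ECs, replicate 5 had the highest Jag1 (4216) at a stromal sum of 22523. The part of stromal transcripts in the Jag1, Notch3 and Heyl differences was not tested. The other EC differences at 1wk WD were smaller. Hey1 was 3078 to 3843 against 2413 to 3322 (0.33 ± 0.12, adjusted p = 0.138), Notch4 was 9921 to 12949 against 12544 to 13878, and Hes1 was 982 to 1772 against 825 to 1475.

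**Figure D3:**
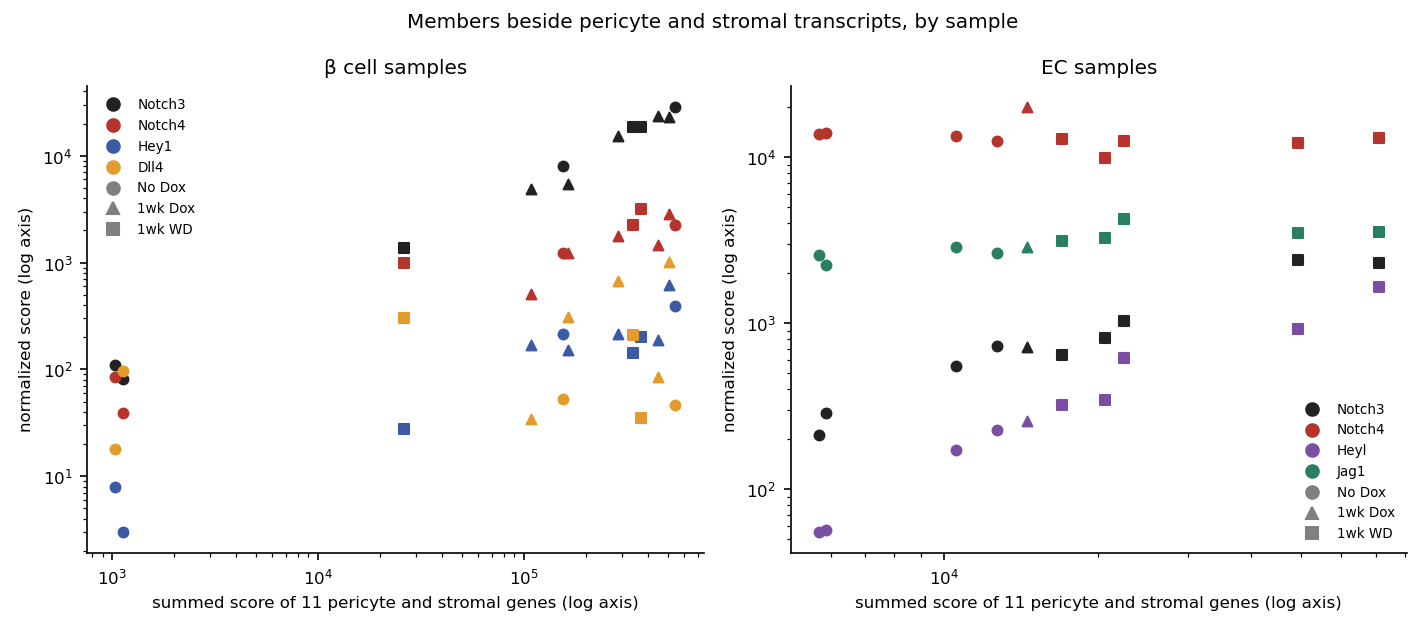
Normalized scores against the summed score of the 11 pericyte and stromal markers (both log axes), each point a sample and each shape a condition, for Notch3, Notch4, Hey1 and Dll4 in β cells (left) and Notch3, Notch4, Heyl and Jag1 in ECs (right). The No Dox β cell replicates with stromal sums of 1036 and 1126 have Notch3 scores of 111 and 82, and the 1wk WD ECs lie at higher stromal sums than all No Dox ECs.

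The single EC sample at 1wk Dox has no replicate check and no test. None of the 10 genes lay 2-fold or more from the No Dox mean, against 10.7% of all genes. Notch4 scored 19970, above the No Dox range of 12544 to 13878, Dll4 scored 6939 (No Dox 5054 to 6110) and Dll1 scored 1001 (No Dox 622 to 975). Jag1, at 2872, was just above its No Dox range. Jag2 at 3650, Hey1 at 2073 and Notch2 at 527 were below their No Dox ranges of 4112 to 5464, 2413 to 3322 and 641 to 993. Notch1 (17315), Notch3 (719) and Hes1 (1086) were within theirs. With 7 of the 10 genes outside the No Dox range, the count is read against 62.1% of all genes outside it. Of the 53 pathway genes over the minimum, 9 lay past 2-fold. Hes6, Cxcr4, Nrarp, Heyl and Dlk1 were higher, with Nrarp at 1587 against 645 to 838 and Heyl at 258 against 55 to 227 at No Dox. Rbpjl, Gja5, Dlk2 and Bmx were lower, with Gja5 at 40 against 71 to 146 and Rbpjl at 2 against 14 to 620. The stromal sum of this sample was 14560 and its acinar sum 205. Its endothelial sum was 599045, against 468016 to 510691 at No Dox. Of the 10 endothelial markers, 8 lay outside the No Dox range and 0 past 2-fold (median 0.28). The part of this shift in the Notch4, Dll4 and Dll1 scores was not tested.

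In MΦs, 8 of the 10 genes passed the minimum score and none was called in either comparison with No Dox. Of all genes, 2.26% were called at 1wk Dox and 0.626% at 1wk WD. Dll1 and Hey1 were at 1 to 7 and 1 to 26 in all MΦ samples and were not tested. Jag1 had the lowest adjusted p of the 8 in both comparisons. It scored 2654, 2083, 2602 and 3129 at No Dox, 1508 and 1771 in the 1wk Dox samples, and 1474, 1689, 1587 and 1589 in the 1wk WD samples (1585 ± 87.9, n = 4), with every No Dox sample above every other sample. At 1wk Dox it differed from No Dox by -0.66 ± 0.17 (adjusted p = 0.0463). The difference for 1wk WD was -0.71 ± 0.14 (adjusted p = 0.0346). These are 1.58-fold and 1.64-fold, under the 2-fold of a call. Among all genes, 1.88% (1wk Dox) and 0.433% (1wk WD) were lower with an adjusted p below 0.05 alone.

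The adjusted p of Jag1 in MΦs is close to its threshold. For 1wk Dox it was below 0.05 in 9 of 20 alternative settings, and for 1wk WD in 8 of 20. Leaving out 1 of the 10 MΦ samples in turn gave values of -0.78 to -0.55 for 1wk Dox and -0.81 to -0.62 for 1wk WD, with the adjusted p reaching at most 0.587 and 0.125. It was below 0.05 only without No Dox replicate 2, No Dox replicate 3 or 1wk WD replicate 1 at 1wk Dox, and only without No Dox replicate 2 or 3 at 1wk WD. No Dox replicates 2 and 4 were the MΦ samples with the highest acinar sums, 12136507 and 2057356. With No Dox replicates 1 and 3 alone, Jag1 differed by -0.68 ± 0.16 (adjusted p = 0.0238) for 1wk Dox and by -0.73 ± 0.14 (adjusted p = 0.0229) for 1wk WD. All 8 acinar markers lay below 0 in MΦs in both comparisons, with a median of -8.55 and 4 called for 1wk Dox and a median of -6.64 and 0 called for 1wk WD. The part of acinar transcripts in the Jag1, Jag2 and Hes1 differences was not tested.

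Hes1 in MΦs scored 150, 256, 176 and 275 at No Dox (214 ± 60.6, n = 4), 583 and 561 in the 1wk Dox samples, and 486, 465, 368 and 187 in the 1wk WD samples. Both 1wk Dox samples were above all No Dox and all 1wk WD samples. The difference from No Dox was 1.46 ± 0.40 in the 1wk Dox samples (adjusted p = 0.0565). In the 1wk WD samples it was 0.76 ± 0.33 (adjusted p = 0.255). With No Dox replicates 1 and 3 alone, the 2 samples of lower acinar sum, Hes1 at 1wk Dox differed by 1.81 ± 0.42 with an adjusted p of 0.024. Leaving out 1 of the 10 MΦ samples in turn gave an adjusted p below 0.05 in 2, without No Dox replicate 2 (0.0459) or 1wk WD replicate 4 (0.0385), and up to 0.245 and 0.558 without 1wk Dox replicate 5 or 4. Endothelial markers were also higher in these libraries, with sums of 3898 and 3074 against 1392 to 1837 at No Dox and 384521 or more in ECs, and their part in the Hes1 difference was not tested.

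Jag2 in MΦs scored 82, 197, 131 and 242 at No Dox, 231 and 277 after Dox and 394, 314, 282 and 203 after withdrawal (0.94 ± 0.36 at 1wk WD, adjusted p = 0.2), and 1 of the 4 1wk WD samples lay within the No Dox range. With No Dox replicates 1 and 3 alone, the pair of lower acinar sum, Jag2 was called at 1wk WD (1.48 ± 0.34, adjusted p = 0.0382). Notch2, the leading MΦ receptor, scored 23087 and 25114 after Dox and 27799 to 31730 after withdrawal, against 25806 to 35538 at No Dox (0.04 ± 0.13 at 1wk WD). Notch1 was 1595 to 3701 in No Dox MΦs and 3065 to 3678 in all later samples. The groups did not overlap for 4 of 8 genes at 1wk Dox (Jag1, Hes1, Dll4 and Notch2), against 30.9% of all genes with only 2 samples at 1wk Dox, and for 1 of 8, Jag1, at 1wk WD, against 9.24%. Dll4 reached the minimum only through the 1wk Dox samples, with a mean of 28 against 15.2 at No Dox and 19.8 at 1wk WD. Its place in these counts is therefore a description. Between 1wk WD and 1wk Dox none of the 8 genes was called, with 0.0866% of all genes called. No gene of the pathway lists was called in MΦs under either condition.

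**Figure D4:**
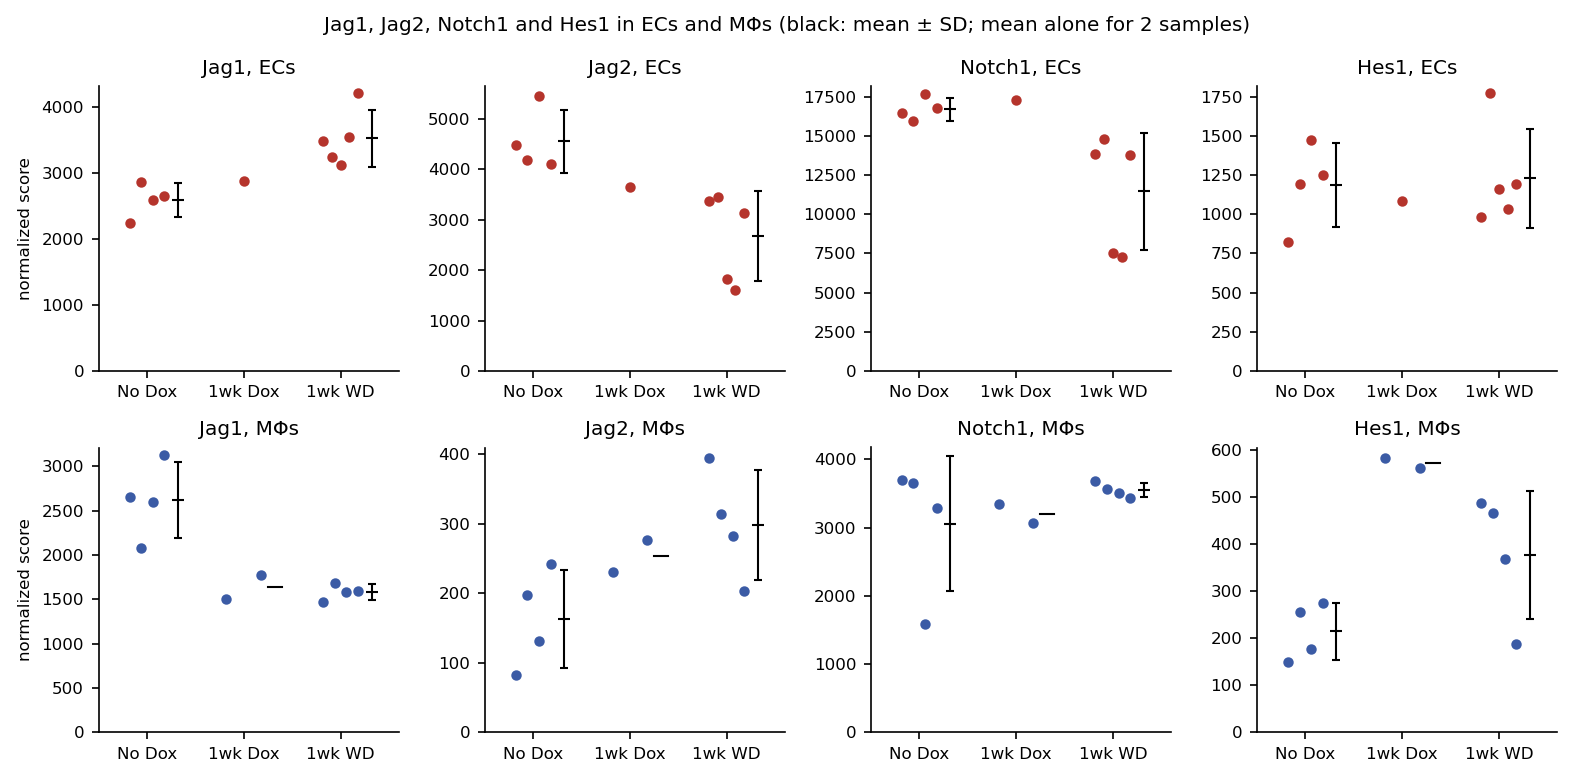
Scores of Jag1, Jag2, Notch1 and Hes1 in ECs and MΦs by condition, each point a sample, with the mean and SD in black (the mean alone for 2 samples). Every 1wk WD sample has more Jag1 than all No Dox samples in ECs, and less in MΦs.

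The Jagged ligands were the members whose withdrawal response differed between ECs and MΦs. The difference of the responses was tested as an interaction, the 1wk WD minus No Dox difference in ECs less that in MΦs. In this fit 2 of the 10 genes were called, against 1.40% of all genes tested. Dll1, Dll4 and Hey1 were under the minimum mean score in these MΦ groups, entered only through ECs, and were not called. Jag1 differed by 1.15 ± 0.18 (adjusted p = 0.00349), being higher at 1wk WD in ECs and lower in MΦs. It was called in 27 of 27 alternatives, over which its value was 1.06 to 1.26. Jag2 differed the other way, by -1.77 ± 0.43 (adjusted p = 0.0414), being lower at 1wk WD in ECs and higher in MΦs. Jag2 was called in 12 of 27 alternatives. Leaving out any 1 of 11 of the 17 libraries gave an adjusted p of 0.051 to 0.1, and without EC 1wk WD replicates 3 and 4 it was -1.39 ± 0.40 (adjusted p = 0.122). With MΦ No Dox replicates 1 and 3 alone it was -2.31 ± 0.41 (adjusted p = 0.00778). Notch1 differed by -0.90 ± 0.35 (adjusted p = 0.155). Stromal markers were higher at 1wk WD in ECs, as given above, and in MΦs 11 of 11 were above 0 (median 1.04) with 0 called. The part of stromal and acinar transcripts in the Jag1 and Jag2 differences of responses was not tested. Of the pathway lists, the γ-secretase gene Psen2 (1.12, adjusted p = 0.0271) and Nrp1 (-1.14, adjusted p = 0.00719) were called, Nrp1 scoring 76483 to 90241 in ECs at No Dox and 42710 to 58640 at 1wk WD.

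**Figure D5:**
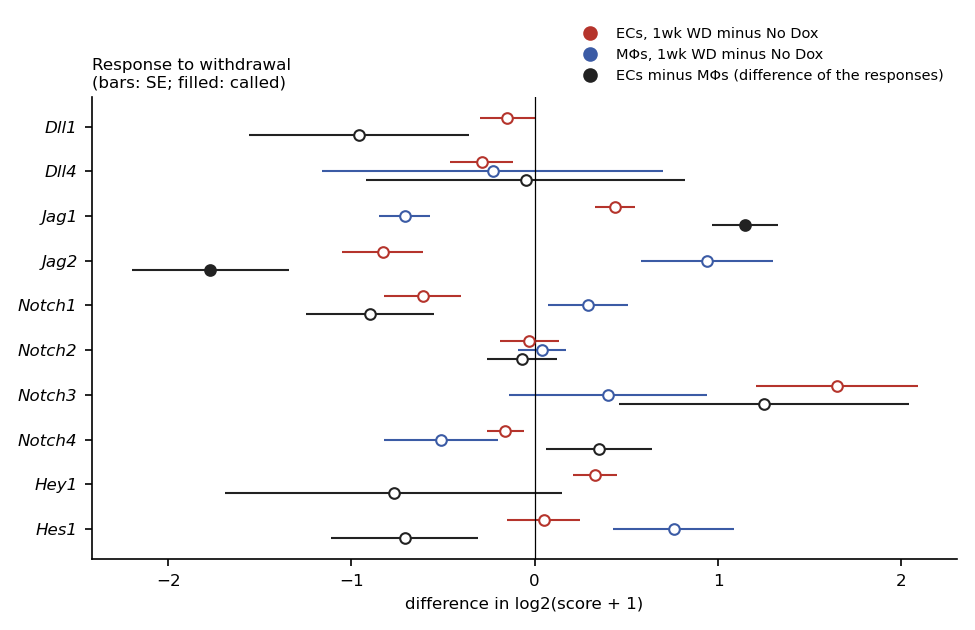
Difference in log2(score + 1) between 1wk WD and No Dox in ECs and in MΦs, and the difference of these responses (ECs minus MΦs), with SE bars and filled points where called. Jag1 at 1.15 and Jag2 at -1.77 are the called differences of responses, and Dll1 and Hey1 have no MΦ point because they were under the minimum score there.

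The promoters of Jag1 and Jag2 are shown because these are the genes whose responses differed. Each is the 250 bases before the start in the RefSeq table (GRCm38.p6), 5′ to 3′ on the strand of the gene, with every CG dinucleotide in capitals. The Jag1 window is chr2:137116521-137116770 on the minus strand and the Jag2 window is chr12:112929496-112929745 on the minus strand.
Jag1: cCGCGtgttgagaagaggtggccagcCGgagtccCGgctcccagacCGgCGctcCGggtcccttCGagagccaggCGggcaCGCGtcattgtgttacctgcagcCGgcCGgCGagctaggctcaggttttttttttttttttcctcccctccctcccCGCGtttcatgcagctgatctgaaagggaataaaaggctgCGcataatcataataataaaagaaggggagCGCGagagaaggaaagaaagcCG
Jag2: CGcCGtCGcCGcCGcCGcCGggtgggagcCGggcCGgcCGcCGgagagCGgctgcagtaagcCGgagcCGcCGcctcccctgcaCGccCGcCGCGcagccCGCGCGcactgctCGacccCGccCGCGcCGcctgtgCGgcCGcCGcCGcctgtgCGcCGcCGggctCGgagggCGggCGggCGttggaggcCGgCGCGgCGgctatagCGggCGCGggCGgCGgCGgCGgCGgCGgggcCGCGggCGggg
The Jag1 window holds 20 CG dinucleotides with a GC content of 57.2%, and the Jag2 window 54 with a GC content of 87.2%, against medians of 6 and 52.4% over 32851 windows of the same length. The core letters of the RBPJ motif, TGGGAA on either strand, occur in neither window and in 0 of the 9 windows of the 8 members with an entry in the table, against 21.6% of all windows. Hey1 and Hes1 had no entry in the table.

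In β cells, none of the 10 genes was called in any of the 3 comparisons between conditions. Of all genes tested, 0.0122% were called at 1wk Dox, 0.00% at 1wk WD, and 0.00% between 1wk WD and 1wk Dox. The fitted differences at 1wk Dox had a median of 1.11 against 0.03 over all genes, and all 10 were above 0. With No Dox replicates 3 and 4 alone, 7 of the 10 were below 0, among them Jag1 (-0.47), Notch2 (-0.96) and Hes1 (-0.55). Above 0 were also 10 of 10 endothelial markers (median 2.19) and 11 of 11 stromal markers (median 3.85), while 0 of 8 acinar markers (median -9.23), 3 of 10 β cell markers (median -0.50) and 3 of 10 macrophage markers (median -0.12) were. None of these markers was called. At 1wk WD, 10 of 10 endothelial (median 0.91), 11 of 11 stromal (median 3.62) and 9 of 10 macrophage markers (median 1.59) were above 0. The same held for 0 of 8 acinar (median -5.89) and 3 of 10 β cell markers (median -0.21), and again none was called. The macrophage sum was 3847 to 7281 at 1wk WD against 573 to 4553 at No Dox. Dll4 scored 18, 97, 53 and 46 at No Dox, 1010, 312, 675, 85 and 34 after Dox, and 35, 208 and 300 after withdrawal. The ranges overlapped, and the 1wk Dox difference was 2.30 ± 1.02 with an adjusted p of 0.708. The β cell libraries with the highest Dll4, 1wk Dox replicates 1 and 3, had the highest endothelial sums, 52416 and 23960. Dll4 did not follow the sum at No Dox, where replicate 2 had the highest Dll4 and a sum of 1516 and replicate 4 had a Dll4 score of 46 and a sum of 6674. The part of endothelial transcripts in β cell Dll4 was not tested.

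Notch3 and Notch4 in β cells followed the split of the No Dox samples. Notch3 scored 111, 82, 8108 and 28465 at No Dox, 22953, 5401, 15281, 23486 and 4893 after Dox, and 18746, 18765 and 1357 after withdrawal. Its difference at 1wk Dox was 3.27 ± 1.64 (adjusted p = 0.738). Notch4 scored 85, 39, 1219 and 2262 at No Dox and 508 to 2865 at 1wk Dox, Hey1 8, 3, 213 and 390 at No Dox and 151 to 619 at 1wk Dox, and Jag1 313, 88, 1440 and 3575 at No Dox and 1009 to 2475 at 1wk Dox. In each, No Dox replicates 1 and 2 were the lowest of the 9 samples and replicates 3 and 4 lay within or above the 1wk Dox range. Notch2 scored 272, 455, 2482 and 3905 at No Dox and 1075 to 2324 at 1wk Dox. The defining stromal gene Pdgfrb had the same split at No Dox, at 80, 66, 13692 and 49477.

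The choice of No Dox β cell samples decided the calls. With No Dox replicates 1 and 2 alone, the same 5 of the 10 genes, Jag1, Notch2, Notch3, Notch4 and Hey1, were called as higher at 1wk Dox (7.36% of all genes called, 6.80% higher) and again at 1wk WD (8.74% called, 8.17% higher). Notch3 then differed by 6.92 ± 0.98 at 1wk Dox and Notch4 by 4.53 ± 0.62. Dll4 differed by 2.41 and was not called (adjusted p = 0.31). With replicates 3 and 4 alone, 0 were called in either comparison, against 0.487% of all genes for 1wk Dox and 0.0853% for 1wk WD. The same split of the No Dox samples was seen in the stromal sums, in the acinar sums (762518 and 33718 in replicates 1 and 2, 13324714 and 9761618 in replicates 3 and 4) and in the β cell marker sums (8751584 and 5647945, then 1681031 and 644064). The part of these transcripts in the β cell differences was not tested.

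As a description of likeness, the genes whose log2 scores followed each member most closely over the 32 samples were listed by Pearson r among 16968 genes. The 32 samples share 3 cell types, which dominate such a correlation. Notch3 was most like the pericyte gene Pdgfrb, Plce1 and Aoc3 (r = 0.98 each), and Notch2 like the myeloid-expressed Ctsh (0.99) and Cxcl16 (0.98). Dll4 was most like the endothelial genes Ptprb and Plvap (0.98 each), Hey1 like Ednrb, Tmem204 and Timp3 (0.97 each), and Notch4 like Slc43a3, Epha4 and Rnf144a (0.98 each). Dll1 was most like Rasip1 (0.97), Notch1 like Cdc42ep3 (0.97), and Jag2 like Fam167b and Tnfsf10 (0.95 each). The closest genes to Jag1, Adamts10 and Hk1 (0.94), and to Hes1, Rusc2, Mlkl and Aplp2 (0.91 each), were less alike than for the other members.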

How the data were processed

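RNA of sorted islet cells was amplified and sequenced by the authors, who aligned reads to mm9 with TopHat 2.0 and deposited normalized expression scores (TMM in Avadis NGS, rounded to whole numbers, lowest score 1). The scores are not counts and depth is unknown. Of 38 sample columns, 6 match no sample here and were not used. No 2 samples were identical. Scores were analyzed as log2(score + 1) with limma 3.58.1 (R 4.3.3), trended variance, Benjamini-Hochberg adjustment over all genes whose mean score reached 20 in a group compared. Within-cell-type fits used all replicated conditions of that cell type, and cell-type fits used the 3 cell types at a condition. A call needed a 2-fold difference and adjusted p below 0.05. The single 1wk Dox EC sample entered no test. The study calls the samples of a group biological replicates, each a pool of mice, and p-values measure the spread between them. Fits were tested on simulated data. The members, marker and pathway lists were chosen with earlier results of these data known. A result for 1 pathway gene is not reported here. All members are named, as are pathway and marker genes that a result turns on. Same-numbered samples did not deviate together (correlations of -0.512 to 0.43), so the numbers were not used as pairs. Alternatives were another pseudocount, filter, scaling, variance trend, set of groups, replicate block and each sample left out, and, added after the data were seen, subsets of No Dox β cells, No Dox MΦs and 1wk WD ECs.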

Additional observations from a re-analysis of the deposited data

Results flagged for a closer look

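The withdrawal response of Jag1 differed between ECs and MΦs by 1.15 on the log2 scale (SE 0.18), and that of Jag2 by -1.77 (SE 0.43), by the interaction test described above. In Jag1, 5 of 5 EC samples at 1wk WD were above the No Dox range and 4 of 4 MΦ samples were below it. Among 60 combinations of a gene and a group of 4 or 5 samples, 6 had a sample far from the others by Dixon's test, which flags about 1 in 20 groups by chance. In No Dox MΦs these were Dll1 at 2 in replicate 4 against 1 in the others, at the floor of the scores, Notch1 at 1595 in replicate 3 against 3284 or more, and Notch2 at 35538 in replicate 1 against 26956 or less. In β cells they were Jag2 at 708 in No Dox replicate 1 against 237 or less, and Hey1 at 619 in 1wk Dox replicate 1 against 215 or less. In ECs, Notch4 was 9921 in 1wk WD replicate 2 against 12106 or more.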

How the results depend on the processing

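Of 1369 alternative values of the 62 member differences with an unadjusted p under 0.05, 1293 kept their direction and were called or not called as before, 47 lost the call, 29 gained one and 0 reversed. Of the 1293, 27 had an adjusted p on the other side of 0.05 while the difference stayed under 2-fold. Counts of called members moved as follows, and the cause was not tested. By unadjusted p, 1 member was called in β cells at 1wk Dox, 1 in ECs at 1wk WD, 1 in MΦs at 1wk Dox, and 5 in β cells against MΦs at No Dox. With No Dox β cell replicates 1 and 2 alone, 5 were called in β cells at 1wk Dox, 5 at 1wk WD, and 6 against MΦs, which were 7 with replicates 3 and 4 alone. In MΦs at 1wk Dox, 1 was called with a minimum mean of 200, 1 with quantile normalization and 1 with No Dox replicates 1 and 3 alone (Hes1 in each), and in MΦs at 1wk WD 1 with those replicates alone (Jag2). For the difference of responses, 1 in place of 2 was called with no filter, with no variance trend, or without EC 1wk WD replicates 3 and 4, Jag2 being lost.

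With the replicate block, 1 member was called in ECs at 1wk WD, Notch3 (1.72, adjusted p = 0.0262), and 1 for the difference of responses, Jag1, with Jag2 lost (adjusted p = 0.0601), and it moved no other count of members by over 1.5 times. Leaving out each sample in turn gave 0 to 1 called in ECs at 1wk WD, 0 to 1 in MΦs at 1wk Dox, 3 to 5 in β cells against MΦs at No Dox (5 without β cell replicate 1 or 2), 1 to 2 for the difference of responses, and 0 to 1 past 2-fold in the single 1wk Dox EC sample (Notch3, without No Dox replicate 2 or 4). Where this left 1 MΦ sample at 1wk Dox, that sample is assumed to vary like the other groups. Fitted differences of Dll1, Dll4 and Hey1 from MΦs rest on scores near the floor, and that of Dll1 between ECs and MΦs at No Dox was as low as 5.16. Depth is unknown, so no counting error can be given.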
